A study of Mus musculus with 12 samples.

Results

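T cell receptor signalling and identity genes were examined in ATAC-seq libraries of mouse bone marrow. The 9 genes were Cd3d, Cd3g, Cd247, Lck, Zap70, Lat, Cd28, Tcf7 and Lef1, out of 21896 protein-coding genes in the RefSeq table. A peak was assigned to a member when its centre lay in the gene or within 15 kb of its ends, and it went to the nearest member. This gave 49 of the 75281 deposited consensus peaks. All 9 members had at least 1 peak, so 0 members had none. For 35 of the 49 peaks the member was also the nearest protein-coding gene, and these are called own peaks. The other 14 peaks lay nearer to a neighbouring gene and are named by that gene. The last peak inside the 15 kb limit, nearest to Creg1 and assigned to Cd247, had its centre 14988.5 bp from the gene and a mean of 88.7 CPM. The nearest peak outside it, close to Nfatc2ip and beyond Lat, lay 15620.5 bp away with a mean of 5.09 CPM.

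The T cell receptor recognises peptide on an MHC molecule, and the CD3 chains that accompany it carry the signal into the cell. The kinase Lck phosphorylates the CD3 and zeta chains, Zap70 docks there and phosphorylates the adaptor Lat, and Cd28 supplies the costimulatory signal. Tcf7 and Lef1 are DNA-binding factors of developing and naive T cells. Mature T cells are a minor population in bone marrow, where most nucleated cells are myeloid, erythroid or B lineage cells.

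ATAC-seq uses the Tn5 transposase, which cuts DNA that is free of nucleosomes, so the reads over a region measure how open its chromatin is. The 12 libraries came from NZO/HILtJ mice, an inbred strain that becomes obese and diabetic, at 3 or 18 months of age, with 3 females and 3 males at each age. No treatment or engineered allele is given for any group. The 18-month females were sequenced in run 14 and the 18-month males in run 15, whereas the 3-month libraries came from runs 28, 29, 30 and 31. Every run held a single age, so age and run cannot be told apart, and at 18 months sex and run cannot be told apart either. Each library carried between 7668099 and 12756647 counts in peaks. Mouse numbers differ between all libraries, but the labels do not say whether litters or cages were shared, and p-values measure the spread between these libraries.

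The cell type was checked against its markers, because the labels' protocols describe a sort of CD3e+ CD8+ T cells while the sample labels name bone marrow. No peak covered the start of Cd3e or Cd8a, the genes of the sorted markers, and none lay within 3 kb of an end of Cd4, Cd8b1 or Trbc2, the constant region of the receptor beta chain. Cd8b1, the partner chain of CD8, and Bcl11b, a factor required for T cell identity, had no peak within 15 kb of the gene at all. At the start, or within 3 kb of a gene end where no start is listed, peaks were present for 13 of 14 erythroid marker genes, 13 of 15 myeloid genes and 13 of 14 B cell genes. The genes without one were Alas2, Elane, Prtn3 and Ebf1. Such peaks stood at 4 of 12 natural killer and cytotoxic genes and at 4 of 8 stem and progenitor genes. Among 44 further T cell receptor and T cell identity genes, 29 had such a peak. Per kb of peak, the median level was 17.4 CPM at the myeloid genes, 13.4 at the erythroid genes, 11.3 at the B cell genes, 11.8 at the further T cell genes and 9.88 at the members. The median over all tested peaks was 10.2 CPM per kb. The libraries thus held open chromatin at genes of the other marrow lineages, and they are called bone marrow here.

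**Figure D1:**
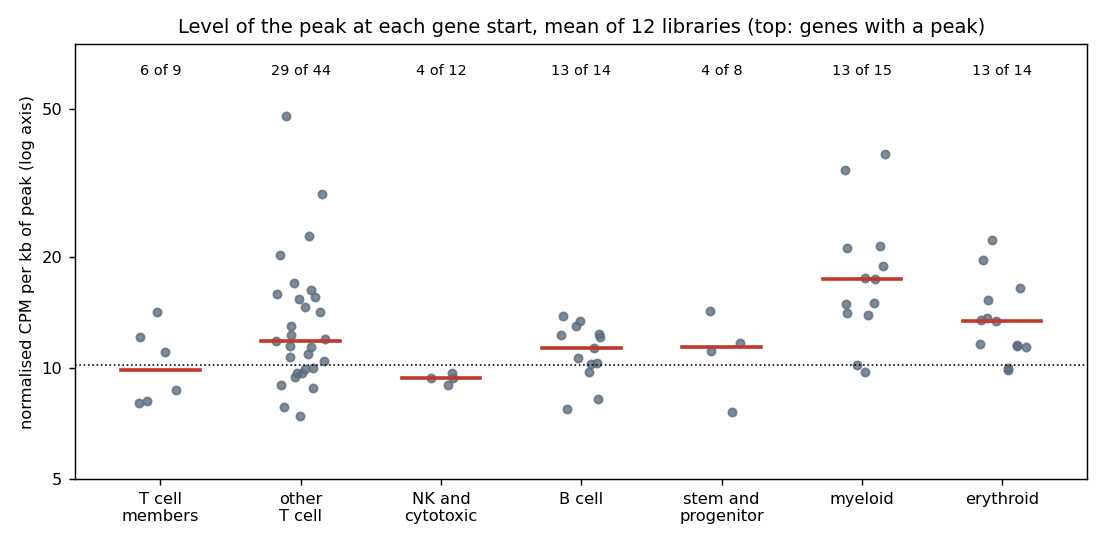
Mean normalised CPM per kb of peak over 12 libraries (log axis) for the peak at the start, or where no start is listed the peak near a gene end, of each marker gene. Points are genes, red lines are medians, the dotted line is the median of all tested peaks at 10.2 CPM per kb, and the myeloid genes have the highest median of the 7 lists at 17.4.

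The promoters of Cd3d, Cd3g and Lck are shown because a peak covers the start of Cd3d and of the proximal Lck transcript, while none covers the start of Cd3g or of the distal Lck transcript. Each line gives the 250 bases before the RefSeq start (GRCm38.p6), 5′ to 3′ on the strand of the gene. Capitals mark matches, on either strand, to short strings bound by RUNX, ETS, TCF/LEF, GATA and E-box factors, which are spelled out after the sequences. The Cd3d window is chr9:44981536-44981785 (+), the Cd3g window chr9:44980432-44980681 (-), the proximal Lck window chr4:129558373-129558622 (-) and the distal Lck window chr4:129573642-129573891 (-).
Cd3d: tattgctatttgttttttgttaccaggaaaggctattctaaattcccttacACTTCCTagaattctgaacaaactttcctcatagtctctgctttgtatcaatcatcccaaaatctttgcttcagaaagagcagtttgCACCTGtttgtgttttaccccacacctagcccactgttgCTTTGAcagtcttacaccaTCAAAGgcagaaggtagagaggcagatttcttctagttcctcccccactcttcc
Cd3g: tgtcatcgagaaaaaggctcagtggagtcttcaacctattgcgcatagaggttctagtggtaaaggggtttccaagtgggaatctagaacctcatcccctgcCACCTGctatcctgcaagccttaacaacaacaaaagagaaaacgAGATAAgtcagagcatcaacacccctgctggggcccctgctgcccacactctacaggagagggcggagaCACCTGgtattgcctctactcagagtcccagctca
Lck proximal: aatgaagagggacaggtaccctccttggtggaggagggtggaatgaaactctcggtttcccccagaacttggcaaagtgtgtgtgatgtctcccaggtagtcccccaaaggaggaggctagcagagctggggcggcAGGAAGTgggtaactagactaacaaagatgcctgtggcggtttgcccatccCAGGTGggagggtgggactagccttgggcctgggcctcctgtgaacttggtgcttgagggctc
Lck distal: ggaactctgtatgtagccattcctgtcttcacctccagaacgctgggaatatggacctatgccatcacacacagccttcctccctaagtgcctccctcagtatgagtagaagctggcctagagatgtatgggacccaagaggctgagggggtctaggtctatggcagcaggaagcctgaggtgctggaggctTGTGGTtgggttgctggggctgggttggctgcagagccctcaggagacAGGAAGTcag

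RefSeq start windows were listed for 8 of the 9 members (Cd28 is named only), 15 windows in all, each of 300 bases from 250 before to 50 after a start. An E-box, searched as CAGGTG and, in a separate search, as CAGCTG, stood in 11 of the 15 windows, against 32.9% of all 32851 windows of the table. The ETS search used CCGGAAG together with the related string AGGAAGT and matched 6 member windows, against 17.3% of all windows. For TCF/LEF the string was CTTTGA, found in 4 member windows and in 16.0% of all windows. RUNX sites were searched as TGTGGT, present in 3 member windows and in 16.8% of all. The GATA string AGATAA stood in 2 member windows and in 11.2% of all. Matches to different strings that overlapped were each counted. Several windows belong to the same gene and overlap, so the 15 are not independent, and a match describes the letters only. Peaks overlapped a start window of 5 members, namely Cd3d, Lck, Lat, Tcf7 and Lef1. Cd3g and Cd3d are transcribed away from each other, and the peak at the start of Cd3d lies between them without reaching the Cd3g window.

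Accessibility was compared between the ages with edgeR's quasi-likelihood test, sex as covariate and Benjamini-Hochberg adjustment over all 75164 peaks tested. Values are CPM, counts scaled to the library total and corrected with TMM factors (normalised CPM), and log2 fold changes are 18 over 3 months, with SE. At an adjusted p of 0.05, 2 of the 49 peaks rose with age and 6 fell, or 16.3%. Over all tested peaks 21% passed, 9.43% higher and 11.6% lower, so the members' share lay near the background. Of the 35 own peaks, 2 rose (at Cd3d and Cd28) and 2 fell (at Cd247 and Lck), or 11.4%. All 4 peaks past the threshold near another gene fell. The median log2 fold change was -0.07 over own peaks, -0.05 over peaks of other genes and 0.02 over all tested peaks. With total counts in peaks as the scale, or with offsets fitted on peak width, 3 member peaks rose and 5 fell. Offsets on abundance gave 3 higher and 8 lower. These counts did not hold the same peaks throughout. With offsets on peak width the Cd28 peak, the own Lck peak and peaks near Hdac1 and Creg1 no longer passed. With offsets on abundance the Cd28 peak and that Creg1 peak did not pass, and with total counts that Creg1 peak did not. Other member peaks entered the counts instead. In bulk marrow, fewer cells of a type and less open chromatin per cell cannot be told apart.

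**Figure D2:**
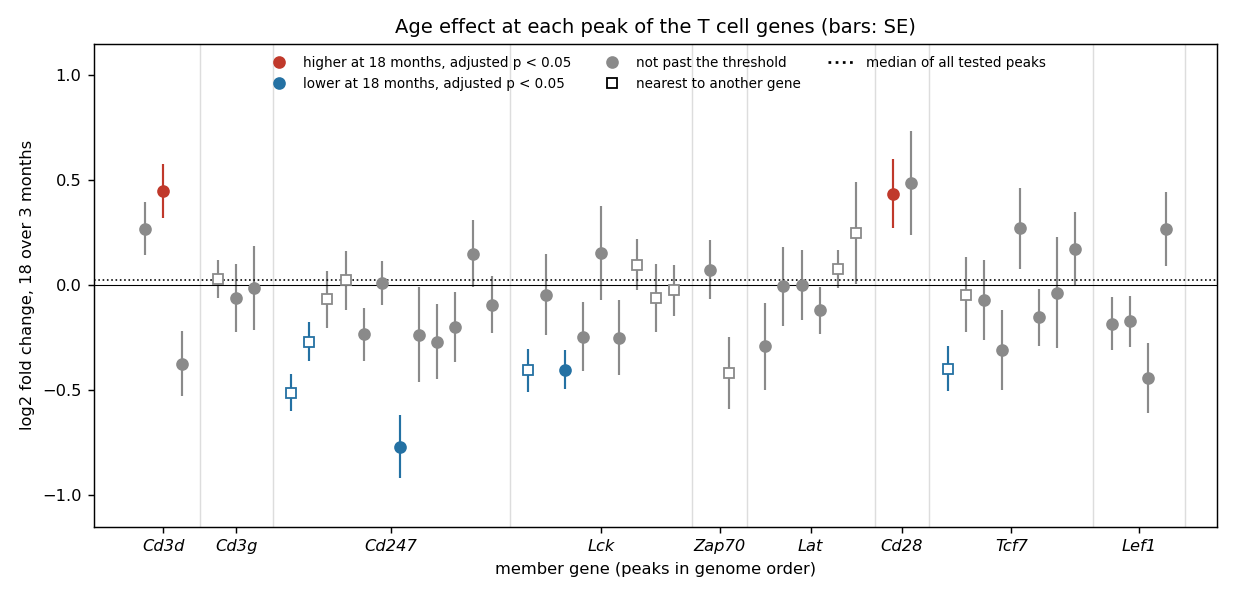
Age effect (log2 fold change, 18 over 3 months, with SE) at each of the 49 peaks, grouped by member and in genome order within each. Filled circles are own peaks, open squares are peaks nearest to another gene, colours mark adjusted p under 0.05, and 8 peaks are coloured, with 2 above and 6 below 0.

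Among the receptor chains, Cd3d was more open at 18 months and Cd247 less open at 1 site, while no peak of Cd3g passed the test. Cd3d encodes the CD3 delta chain. Its highest peak covered the 3′ end of the gene (chr9:44986294-44987328). Accessibility there ranged from 24.7 to 42.01 normalised CPM at 18 months (median 30.8) and from 18.1 to 36.9 at 3 months (median 22.8). All 6 old libraries lay above the young median, but the groups overlapped because the 3-month male of run 30 reached 36.9. The log2 fold change was 0.45 ± 0.129 (adjusted p = 0.00875). Without that library it was 0.63 (adjusted p = 4.85e-07). At 27.3 CPM per kb this was also the highest of the 35 own peaks per length.

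The peak at the Cd3d start (chr9:44980749-44981800) ranged from 11.5 to 13.9 normalised CPM at 18 months (median 12.7) and from 7.57 to 13.0 at 3 months (median 10.4). Its log2 fold change of 0.27 ± 0.128 did not pass (adjusted p = 0.127), although it did with total counts as the scale (0.35, adjusted p = 0.0427). Another peak beyond the 3′ end (chr9:44991723-44992568) had a value of -0.37 ± 0.154 (adjusted p = 0.0757). The estimates at the Cd3d peaks thus differed in sign, but with TMM factors only the peak over the 3′ end passed. Cd3g, which encodes the CD3 gamma chain, had its highest own peak just past its 3′ end (chr9:44968727-44969519), at 4.54 to 8.91 normalised CPM in old and 5.63 to 9.91 in young libraries. The log2 fold change there was -0.06 ± 0.162 (adjusted p = 0.841).

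Cd247 encodes the zeta chain, which carries most of the phosphorylation motifs of the receptor complex. It had 8 own peaks, and the 1 that changed lay inside the gene (chr1:165818074-165818839). Values there ran from 5.27 to 7.61 normalised CPM at 18 months (median 6.30) and from 7.17 to 13.1 at 3 months (median 11.3). Every old library was below the young median and 5 of the 6 were below the lowest young library. The log2 fold change was -0.77 ± 0.150 (adjusted p = 0.000138), the largest in size of the 49 peaks. By contrast, the strongest own peak of Cd247, close to the lower-coordinate end of the gene (chr1:165780305-165781961), had medians of 19.5 normalised CPM at 18 months and 19.6 at 3 months. Its log2 fold change was 0.01 ± 0.106 (adjusted p = 0.959). The remaining 6 own peaks of Cd247 had values between -0.27 and 0.15, and none passed.

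Of the kinases, Lck fell at 1 of its 5 own peaks and Zap70 did not pass. The Lck peak was a wide region of 4107 bp (chr4:129554840-129558946) that covers the proximal start shown above. It ranged from 40.6 to 44.7 normalised CPM at 18 months (median 43.2) and from 49.7 to 67.1 at 3 months (median 56.1). The ages did not overlap, which held at 7.24% of all tested peaks. The log2 fold change was -0.40 ± 0.0918 (adjusted p = 0.00113). With offsets fitted on abundance the value was -0.21 (adjusted p = 0.0402), and with offsets on peak width it was -0.17 and did not pass (adjusted p = 0.126). At the other 4 own Lck peaks, all inside the gene, values lay between -0.25 and 0.15 and none passed. Zap70 had a single own peak, downstream of the gene (chr1:36784612-36785389), at 7.65 to 9.48 normalised CPM in old and 5.93 to 9.13 in young libraries. Its log2 fold change was 0.07 ± 0.140 (adjusted p = 0.756).

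Lat, the membrane adaptor that assembles the signalling complex, had 4 own peaks and none passed. The peak over its start (chr7:126369136-126370233) ranged from 14.2 to 16.2 normalised CPM at 18 months and from 14.3 to 18.4 at 3 months. The groups overlapped and the log2 fold change was -0.12 ± 0.113 (adjusted p = 0.488).

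Cd28 was more open with age at a peak over the lower-coordinate edge of the gene (chr1:60745766-60746577). Normalised CPM ranged from 5.59 to 10.9 at 18 months (median 6.74) and from 4.46 to 8.69 at 3 months (median 5.07). All 6 old libraries exceeded the young median, and 2 exceeded the highest young library, the female of run 29. The log2 fold change of 0.44 ± 0.164 passed narrowly (adjusted p = 0.0492) and passed in 7 of 21 other settings, with adjusted p between 0.0166 and 0.343. A second peak beyond the opposite end (chr1:60781561-60781975) held 1.59 to 5.44 normalised CPM in old and 1.45 to 3.59 in young libraries. There the value was 0.49 ± 0.247 (adjusted p = 0.158).

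Neither transcription factor had an own peak past the threshold over both sexes. The Tcf7 start peak (chr11:52282941-52283295) was low, at 1.28 to 4.44 normalised CPM in old and 2.03 to 4.80 in young libraries, with a log2 fold change of -0.03 ± 0.265 (adjusted p = 0.946). The highest Tcf7 peak, inside the gene (chr11:52268158-52268949), had a value of -0.15 ± 0.136 (adjusted p = 0.459). Lef1 had its highest peak inside the gene, overlapping the window of an internal start (chr3:131110980-131112652), at 11.1 to 17.1 normalised CPM in old and 12.6 to 19.4 in young libraries. The difference of -0.17 ± 0.123 did not pass (adjusted p = 0.339). A further Lef1 peak inside the gene (chr3:131117677-131118333) came nearest to the threshold, at -0.44 ± 0.167 (adjusted p = 0.0515).

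**Figure D3:**
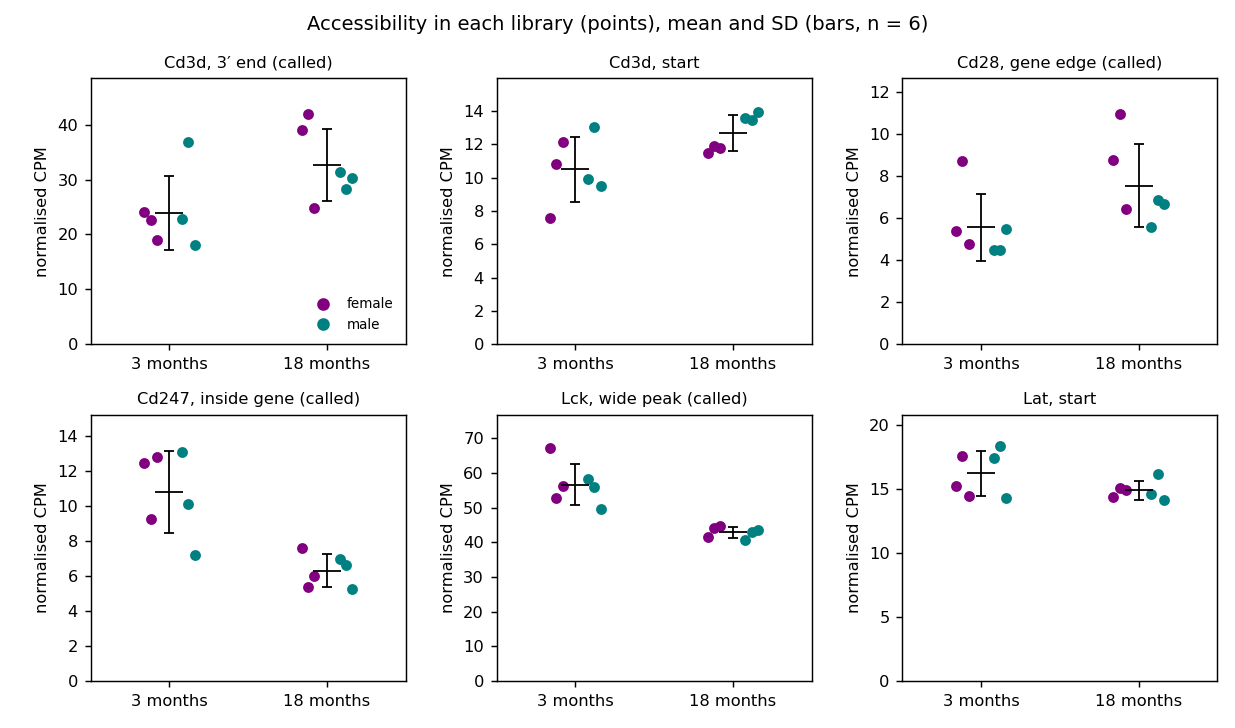
Normalised CPM in each library at 6 own peaks, by age, with females in purple and males in green. Black bars are the mean and SD of 6 libraries, axes start at 0, and the Lck peak is the panel in which the ages do not overlap (40.6 to 44.7 against 49.7 to 67.1).

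The 4 peaks that fell near other genes were at Creg1, Hdac1 and Skp1, broadly expressed genes that neighbour Cd247, Lck and Tcf7. The strongest covered the Creg1 start (chr1:165762504-165767423), at 67.0 to 81.1 normalised CPM in old and 90.9 to 115 in young libraries. Those ranges did not overlap, and the log2 fold change was -0.51 ± 0.0893 (adjusted p = 2.54e-05). It passed in all 21 other settings, with values between -0.57 and -0.27 and adjusted p up to 0.00514. A second peak near Creg1 (chr1:165768762-165771906) had -0.27 ± 0.0929 (adjusted p = 0.0325), which passed in 11 of 21 other settings. Values there lay between -0.31 and -0.06, with adjusted p up to 0.652. The call was lost with total counts and with offsets on abundance or peak width. The Hdac1 peak (chr4:129540771-129543347) fell by 0.40 on the log2 scale (SE 0.102, adjusted p = 0.00311). With offsets on peak width its value was -0.22 and did not pass (adjusted p = 0.0840), nor did it in males alone (adjusted p = 0.0789). At Skp1 (chr11:52231530-52232863) the fall was of the same size, -0.40 ± 0.108 (adjusted p = 0.00598), and this did not pass in males alone (adjusted p = 0.190). These peaks carry many of the counts around the members, so gene totals are given with and without them.

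Counts were next summed per gene, which gave 15483 genes with a peak, of which 37.2% passed the test, 18.4% higher and 18.8% lower. Library sizes and TMM factors were taken from the table of sums, so levels and fold changes of sums stand on another scale than those of peaks. For the members, the log2 fold changes of sums lay a median of 0.07 higher than with the library sizes and factors of the peak table. On that peak scale, added after the data had been seen, 35.7% of all sums passed, 11% higher and 24.7% lower, and the median over all sums was -0.06 in place of 0.01.

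On the scale of the sums, Cd3d and Cd28 rose, Cd247 and Lck fell, and the other 5 members did not pass over both sexes. Cd3d totalled 51.0 to 66.8 CPM on that scale at 18 months and 43.5 to 64.4 at 3 months, with a log2 fold change of 0.36 ± 0.0881 (adjusted p = 0.00277). Cd28 totalled 10.8 to 15.3 at 18 months and 7.29 to 11.9 at 3 months, with 0.53 ± 0.137 (adjusted p = 0.00371). Both passed in all 21 other settings tried for sums, with 0.28 (adjusted p = 0.0383) for Cd3d and 0.47 (adjusted p = 0.00784) for Cd28 on the peak scale. All assigned peaks of both genes were own peaks, so the settings with own peaks only repeated the same counts. None of these settings was a fit of a single sex. Lck totalled 150.3 to 158.7 CPM at 18 months and 162.9 to 196.6 at 3 months, and its value was -0.20 ± 0.0484 (adjusted p = 0.00241). Over own peaks alone Lck was at -0.25 (adjusted p = 0.00388), and on the peak scale at -0.32 (adjusted p = 0.000638).

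Cd247 fell with all its assigned peaks, by 0.24 on the log2 scale (SE 0.0439, adjusted p = 0.000157), but over own peaks alone the value was -0.10 and did not pass (adjusted p = 0.152). On the peak scale the own peaks of Cd247 summed to 62.1 to 67.2 normalised CPM at 18 months and 69.6 to 75.6 at 3 months, and their value of -0.17 ± 0.0562 passed (adjusted p = 0.0216). Whether Cd247 passed without the peaks nearest to Creg1 thus depended on the scale. Values for the others were 0.09 for Cd3g (adjusted p = 0.199), 0.09 for Lat (0.161), -0.12 for Tcf7 (0.112), -0.08 for Lef1 (0.526) and -0.06 for Zap70 (0.714). Over own peaks these became 0.03, -0.03, 0.04, -0.08 and 0.15, and none passed. On the peak scale the own peaks were at -0.04 for Cd3g, -0.10 for Lat, -0.03 for Tcf7, -0.15 for Lef1 and 0.07 for Zap70, and none passed. With all assigned peaks, Tcf7 fell on the peak scale (-0.19, adjusted p = 0.0273), which gave 2 higher and 3 lower members. With offsets on abundance the sums of all peaks assigned to Cd3g and Lat also passed as higher. Most counts of both sums came from peaks nearest to other genes. Own peaks alone were not fitted with those offsets, and on the scale of the sums they did not pass for either (adjusted p = 0.898 and 0.788).

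The further T cell list of 44 genes, covering receptor chains, proximal kinases, adaptors, later signalling enzymes and transcription factors, was counted by peak and by gene. At the peak at each start or gene end, 3 of 29 genes rose and 4 fell, shares near the 9.43% and 11.6% of all tested peaks. The median log2 fold change was 0.09, against 0.02 over all tested peaks. Higher were Lcp2, the adaptor SLP-76 (0.39, adjusted p = 0.0263), Nfatc2, a calcium-regulated factor (0.33, adjusted p = 0.0394), and Ptpn22, a phosphatase that restrains Lck (0.35, adjusted p = 0.0123). Lower were the adaptor Grap2 (-0.52, adjusted p = 0.00190), the phospholipase Plcg1 (-0.46, adjusted p = 0.000526), the ubiquitin ligase Cblb (-0.34, adjusted p = 0.0123) and the IL-7 receptor chain Il7r (-0.50, adjusted p = 0.0426). Cblb did not pass with offsets on abundance (-0.15, adjusted p = 0.162) or on peak width (-0.23, adjusted p = 0.0612), and Il7r did not with total counts (-0.43, adjusted p = 0.0827). With each of the 12 libraries left out in turn, Nfatc2 passed in 4 fits, Lcp2 in 8 and Il7r in 5, and the number of genes that rose went down to 1. With total counts or offsets on abundance, 5 rose and 3 fell, and with offsets on width 4 rose and 3 fell.

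With the peaks of each gene summed, a level added after the data had been seen, 19 of 35 genes of this list rose and 1, Il7r, fell (-0.33, adjusted p = 0.00402). Of all summed genes 18.4% were higher and 18.8% lower. The median log2 fold change was 0.19, against 0.01 over all summed genes. Trat1, a receptor-associated adaptor (0.50, adjusted p = 0.000195), and Prkcq, the kinase PKC theta (0.35, adjusted p = 0.000110), rose as sums. So did Nfatc2 (0.48, adjusted p = 4.19e-05) and Cd5, a receptor that dampens signalling (0.29, adjusted p = 0.00594). On the peak scale 7 of the 35 rose and 2, Il7r (-0.40, adjusted p = 0.00173) and Plcg1 (-0.18, adjusted p = 0.0246), fell, with a median of 0.13 against -0.06 over all sums. Of all sums on that scale 11% were higher and 24.7% lower. Trat1 (0.43, adjusted p = 0.00377), Prkcq (0.28, adjusted p = 0.00432) and Nfatc2 (0.41, adjusted p = 0.000592) passed on that scale, and Cd5 did not (0.22, adjusted p = 0.0546). Between 15 and 21 rose under the remaining settings. Of the genes that were lower at the peak at their start or end, Grap2 (0.09, adjusted p = 0.188), Plcg1 (-0.12, adjusted p = 0.137) and Cblb (0.05, adjusted p = 0.510) did not pass as sums on the scale of the sums. The Cd4 gene did not pass (0.19, adjusted p = 0.458). Cd3e and Cd8a had peaks within 15 kb, 2 and 1 respectively, that were assigned to other genes, so no sum is given for them.

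**Figure D4:**
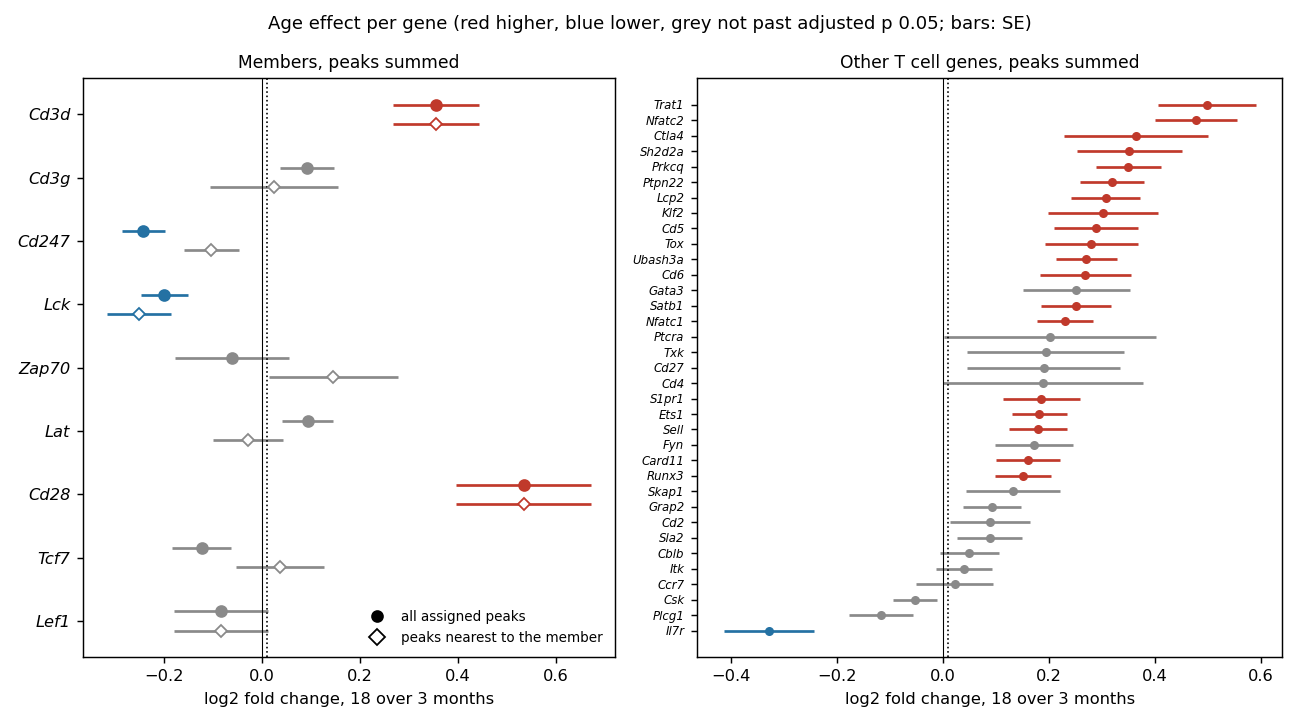
Log2 fold change (18 over 3 months, with SE, on the scale of the sums) of counts summed per gene for the 9 members, with all assigned peaks (filled) or own peaks only (open), and for 35 further T cell genes. Dotted lines are the median of all summed genes at 0.01, and 19 of the 35 genes are red (higher) and 1 is blue (lower).

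Markers of other lineages moved with age in the same libraries, where 9.43% of all tested peaks were higher and 11.6% lower. All 13 erythroid genes with a peak fell (median log2 fold change -0.96), and their summed level was 309 to 343 normalised CPM at 18 months against 553 to 728 at 3 months. Of 13 myeloid genes, 9 rose and 0 fell (median 0.48), with sums of 305 to 360 and 196 to 369. The B cell list had 0 of 13 genes past the threshold (sums of 106 to 150 and 127 to 166) and the natural killer list 0 of 4 (27.2 to 31.0 and 23.8 to 30.8). Of the stem and progenitor genes 0 of 4 passed (37.9 to 48.8 and 41.3 to 46.5). With the peaks of each gene summed, as for the further T cell list, 12 of 14 myeloid genes rose and 0 fell (median 0.43), and all 14 erythroid genes fell (median -0.76). Among natural killer and cytotoxic genes 2 of 10 rose and 0 fell, with a median of 0.22, above the 0.19 of the further T cell genes, while Ncr1 and Gzmb had no peak within 15 kb. Of 7 stem and progenitor genes 3 rose and 0 fell (median 0.08), and of 14 B cell genes 1 rose and 1 fell (median 0.01). The shares over all summed genes were 18.4% higher and 18.8% lower. On the peak scale 10 myeloid sums rose and all 14 erythroid sums fell, while 0 of 10 natural killer and 0 of 7 stem and progenitor sums passed with edgeR, where 1 and 2 had an unadjusted p under 0.05. The shares over all sums on that scale were 11% higher and 24.7% lower. The further T cell list summed to 467 to 628 normalised CPM at 18 months and 491 to 619 at 3 months. What part these shifts between lineages have in the values of the members was not tested.

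No age effect at the members differed between the sexes past the threshold. In females 2 of the 49 peaks rose and 4 fell, while 11.9% of all tested peaks passed, 5.7% higher and 6.2% lower. In males 0 rose and 5 fell, while 11.4% of all peaks passed, 3.21% higher and 8.18% lower. The Cd3d 3′ peak was at 0.69 in females (adjusted p = 0.00327) and at 0.21 in males (adjusted p = 0.462), but the difference between the sexes did not pass (-0.47, adjusted p = 0.496). The Cd247 peak and the wide Lck peak passed in each sex with the spread shared over all 12 libraries, but not in a fit of the 6 males alone (adjusted p = 0.0552 and 0.114). For the difference of the age effect between the sexes, 0 of 49 peaks passed with edgeR, against 0.00532% of all peaks, and 3 had an unadjusted p under 0.05, where 10% of all tested peaks did. With total counts as the scale, 1 member peak rose and 1 fell in males, and with offsets on abundance 1 rose and 2 fell.

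The lowest interaction p among the members belonged to a Lef1 peak inside the gene (chr3:131208497-131209119). Means there were 8.66 ± 0.956 (SD, n = 3) normalised CPM in old and 5.05 ± 1.28 in young females, and 5.43 ± 1.24 in old and 6.63 ± 0.672 in young males. The age effect was 0.78 in females (adjusted p = 0.0138) and -0.27 in males (adjusted p = 0.506), and the difference between the sexes was not past the threshold (adjusted p = 0.264). Lef1 fell in males at the peak nearest to the threshold above (-0.76, adjusted p = 0.0228), where females were at -0.15 (adjusted p = 0.726) and the difference again did not pass (adjusted p = 0.523). Between males and females over both ages, 0 of 49 peaks passed (edgeR, smallest adjusted p = 0.530), against 0.162% of all peaks, and 4 had an unadjusted p under 0.05, against 7.57% of all tested peaks.

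As sums within females, Cd3d rose and Cd247, Lck and Tcf7 fell, while 25.9% of all summed genes passed, 12.6% higher and 13.3% lower. As sums within males, Cd28 rose and Cd247 and Lef1 fell, while 23.8% of all summed genes passed, 10.7% higher and 13% lower. Cd3d did not pass in males (0.27, adjusted p = 0.107), and Cd28 did not pass in females (0.40, adjusted p = 0.121). The Lef1 sum lay at 33.9, 42.2 and 44.3 CPM on the scale of the sums in old males and at 47.3, 51.2 and 53.5 in young males. Lef1 was at -0.33 in males (adjusted p = 0.0428) and at 0.15 in females (adjusted p = 0.366), and the difference between the sexes did not pass (-0.48, adjusted p = 0.287). Tcf7, summed with the peaks nearest to Skp1, was at -0.22 in females (adjusted p = 0.0448) and at -0.02 in males (adjusted p = 0.857), and the difference did not pass either (0.20, adjusted p = 0.473). The Lef1 call in males and the Tcf7 call in females were lost with total counts (adjusted p = 0.0651 and 0.0856) and with offsets on abundance (adjusted p = 0.0642 and 0.0869), and with those offsets 0 of the 9 sums passed in males, where 5 had an unadjusted p under 0.05. On the peak scale the Lef1 call in males held (-0.44, adjusted p = 0.0122), Lck also fell in males (-0.25, adjusted p = 0.0179) and the Tcf7 call in females was lost (-0.25, adjusted p = 0.0558). For the difference between the sexes, 0 of 9 sums passed with edgeR, against 0% of all summed genes, and 1 had an unadjusted p under 0.05, where 12.6% of all summed genes did.

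**Figure D5:**
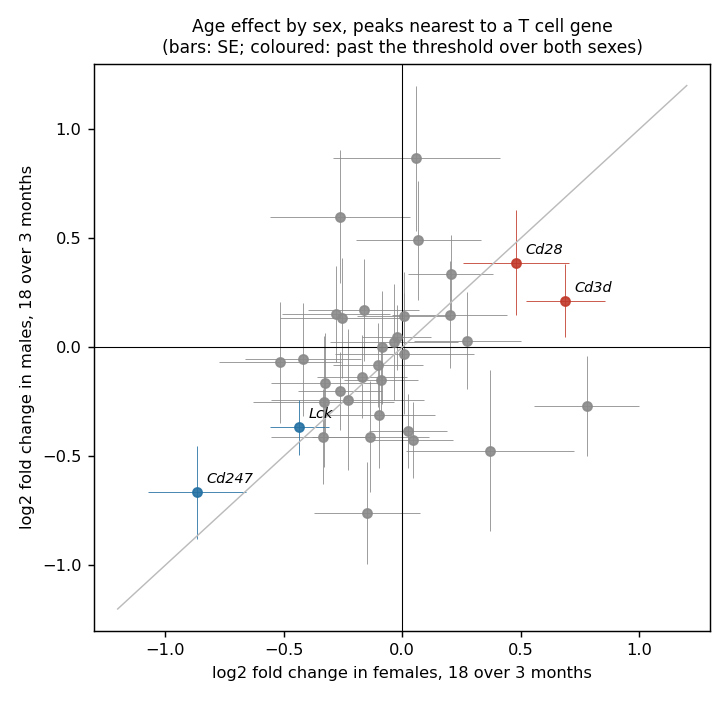
Age effect in females (horizontal axis) against males (vertical axis), log2 fold change with SE, at the 35 own peaks. The grey diagonal marks equal effects, coloured points passed over both sexes, and Cd247 and Lck lie below 0 in both sexes while Cd3d and Cd28 lie above 0 in both.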

How the data were processed

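ATAC-seq was done on bone marrow of 12 NZO/HILtJ mice. The authors deposited read counts per consensus peak, with a lowest value of 1. Whether lower values were raised to 1 is not given in the sources used here. Per the submitters' processing notes, Trimmomatic, BWA, MACS2, DiffBind and edgeR were named, with build mm10. Their settings, the consensus rule, duplicate removal and any shift of read ends to the Tn5 cut are not given in the sources used here.

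Groups, ages, sexes and runs came from the sample labels. The members and gene lists were chosen with earlier results of these data known. Peaks were placed by the RefSeq GRCm38.p6 gene table. Peaks with more than 1 CPM in at least 2 libraries were tested (75164 of 75281, including all 49 of the members) with edgeR 4.0.16 (R 4.3.3, limma 3.58.1) under TMM scaling. Gene sums were scaled on their own table, and as an alternative with the library sizes and factors of the peaks. The design was age plus sex, with 1 mean per age and sex for contrasts within a sex. Alternatives were other scalings, DESeq2 1.42.0, other filters, single sexes and leaving out each library. The age fit at peaks was tested on simulated data. Named were all members, with their start peak, highest peak and every peak past the threshold, the genes of the further T cell list past the threshold, up to 6 in each direction, and Cd3e, Cd4, Cd8a and Cd8b1. The Lef1, Cd3d and Cd28 peaks named beyond this, and the summed genes of the further T cell list, were picked after their values were seen. Counts per library limit precision: 3 counts, the smallest taken as detectable, were worth 0.235 to 0.391 CPM. Reads carried no molecular identifiers in the labels, so this covers counting error only.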

Additional observations from a re-analysis of the deposited data

Results flagged for a closer look

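Among 50 sets of 6 libraries of 1 age checked at the named peaks and gene sums, 4 held a library far from the other 5, with a gap-to-range ratio above 0.625. Chance flags about 1 in 20 sets. At the Cd3d 3′ peak the 3-month male of run 30 stood at 36.9 normalised CPM, with the next young library at 24.2 and the lowest at 18.1 (ratio 0.676). In the Cd3d sum, on the scale of the sums, the same library reached 64.4, with the next at 46.3 and the lowest at 43.5 (ratio 0.867). No other library came from that run. Without it the Cd3d sum had a log2 fold change of 0.46 (adjusted p = 1.57e-06). The 18-month female 42 had the lowest Cd3d sum of the old libraries, at 51.0 against 61.0 for the next and 66.8 for the highest (ratio 0.634), and without it the value was 0.40 (adjusted p = 0.00173). At the Cd28 edge peak the 3-month female of run 29 stood at 8.69 normalised CPM, with the next young library at 5.49 and the lowest at 4.46 (ratio 0.758). Without it the log2 fold change was 0.56 (adjusted p = 0.0166).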

How the results depend on the processing

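No paired analysis was possible because no mouse number is shared between the groups. No single value changed sign among those past the threshold. The count of member peaks that rose (2) was 1 with the DESeq2 Wald test, with DESeq2 size factors and with no filter, 0 in males only, and 1 to 2 when each library was left out; it was 1 without the 18-month females 35 or 36, the 18-month males 39 or 40, the 3-month female of run 28 or the 3-month male of run 29, each of which ended the Cd28 call (adjusted p 0.0800 to 0.178), as did leaving out the 3-month female of run 31 (0.147). The count that fell (6) was 2 in males only, 2 within 5 kb, 2 over own peaks, and 5 to 8 with libraries left out. Among gene sums, 4 rose with offsets on abundance and 1 fell over own peaks; leaving out libraries gave 2 to 2. For the male age effect, 1 rose with total counts or offsets on abundance, while 1 and 2 fell. As gene sums in males (scalings tried after the data had been seen, no library left out), 1 fell with total counts, and with offsets on abundance 0 rose and 0 fell. As gene sums on the scale of the peaks, with or without peaks nearest to other genes, 7 of the further T cell list rose and 2 fell, in place of 19 and 1. In the further T cell list, 5 rose with total counts or offsets on abundance; left-out libraries gave 1 to 4 higher (1 without the 18-month female 42, the 18-month male 40 or the 3-month female of run 29) and 2 to 5 lower (2 without the 18-month male 38). The B cell list had 0 to 2 lower (2 without the 3-month female of run 31). The causes were not tested. The Cd3d, Cd247 and wide Lck calls held whichever library was left out, and in a fit of the males alone none of them passed. In the further T cell list Grap2, Plcg1 and Ptpn22 passed in all 19 other settings, Cblb in 16 (lost without the 18-month male 38 and with offsets on abundance or peak width), Lcp2 in 15 (lost without the 18-month female 42, the 18-month male 40 or either 3-month library of run 29) and Nfatc2 and Il7r in 11 each, with adjusted p up to 0.162, 0.0896, 0.104 and 0.147. Nfatc2 was lost without any of the 18-month females, the 18-month male 40, any of the 3-month females or the 3-month male of run 31, and Il7r with total counts and without the 18-month female 35, any of the 18-month males, either 3-month library of run 31 or the 3-month male of run 29. Total counts moved the median over all peaks from 0.02 to 0.10. With counts of 12 to 49 per library, the Tcf7 start peak had an SE of 0.265, so small differences were not detectable there.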
